A study of Mus musculus with 2 samples.

Results

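The junction table of the mouse gonadal fat pad held 497 splice junctions whose names carried flag A = 1 and flag C = 0, out of 515046 junctions in all (0.0965%). They were taken by those 2 flags alone, with no minimum of reads. The table does not state what the flags mean. Where bases could be read, the A=1, C=1 junctions had the intron ends GT-AG without exception (14709 of 14709) and the A=1, C=0 junctions never did (0 of 64). Among readable A=1 junctions flag C thus went with GT-AG ends. The end pairs of A=0 junctions are not given here.

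Polyadenylated RNA longer than 200 nt was sequenced as strand-specific pairs of 76 nt from the gonadal fat pad, a white adipose depot, of C57BL/6J mice aged 8 weeks. There was 1 group of 2 libraries, replicate 2 and replicate 1, each from tissue pooled over males and females of a litter. Both libraries carry the same donor identifier, so how many mice stand behind each is not given. No condition was compared, and every comparison below is a description with no test. The junction table pools both libraries and splits its reads into R2 and R1, which the labels do not tie to replicate 2 or replicate 1. It held 21609924 junction reads in R2 and 19172220 in R1. Expected counts of genes summed to 54129473 in replicate 2 and 47106979 in replicate 1. Fat cell markers were high in both libraries, with Adipoq, the hormone adiponectin, at 1299 TPM (transcripts scaled to a fixed total) in replicate 2 and 767 TPM in replicate 1. Plin1, the perilipin of lipid droplets, was at 578 TPM in replicate 2 and 654 TPM in replicate 1. Fabp4 was at 2744 TPM in replicate 2 and 2869 TPM in replicate 1, and Cidec at 2068 TPM and 1049 TPM. Lep differed most, with 575 TPM in replicate 2 and 92.1 TPM in replicate 1. Markers of epithelium were present too, with Epcam at 65 TPM in replicate 2 and 111 TPM in replicate 1, and Krt8 at 156 TPM in replicate 2 and 229 TPM in replicate 1. Markers of skeletal muscle were also present, with Acta1 at 83.6 TPM in replicate 2 and 68.4 TPM in replicate 1. Ckm was at 34.8 TPM in replicate 2 and 20.3 TPM in replicate 1. Ucp1, which marks brown fat, was at 0.45 TPM in replicate 2 and 0.21 TPM in replicate 1.

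An intron is removed by the spliceosome, which reads a donor site at the intron's 5′ end and an acceptor site at its 3′ end. Nearly all mammalian introns start with GT and end with AG. A small share start with GC and are removed by the same major spliceosome, which pairs the donor with U1 and U6 RNA. A rarer class is removed by the minor spliceosome, built on U11 and U12 RNA, and part of that class starts with AT and ends with AC. Minor introns are known for a tightly conserved donor and a conserved branch-point stretch, and they lie in genes of many functions.

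Gene names were given to the junctions by structure, since the junction table is on mm9 and the annotation used here, GENCODE M21, is on mm10. A junction was matched to an annotated intron of the same chromosome, strand and length when the next exon and the next intron on at least 1 side also had lengths found in the junction table, so no position was converted between builds. Of the 497 junctions 446 (89.7%) matched, 444 of them to a single intron, against 95.7% of A=1, C=1 junctions, 6.32% of A=0, C=1 junctions, 0.0431% of A=0, C=0 junctions and 34.1% of all junctions. The same search against introns of the opposite strand matched 0 of the 497. A gene name below rests on that match and carries its limits.

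The bases at an intron's ends could be read only where another annotated transcript or a RefSeq promoter window of mm10 runs through them, so the readable introns are not a random sample of the 497. Both ends were readable in 64 junctions. Of these 39 were GC-AG, 15 were AT-AC and 10 had other ends. The following donors start with GC or AT and are shown with 3 exon bases, then the intron, and the intron's first 2 bases in capitals. Rack1 is GC-AG and Hsbp1, Hnrnpl and D10Jhu81e are AT-AC, while the acceptors of Sqstm1 and Prom2 could not be read. Rack1 lies at chr11:48801832-48801846, Sqstm1 at chr11:50202387-50202401, Prom2 at chr2:127534813-127534827, Hsbp1 at chr8:119345000-119345014, Hnrnpl at chr7:28814285-28814299 and D10Jhu81e at chr10:78163385-78163399 on mm10, where Sqstm1, Prom2 and D10Jhu81e are on the minus strand and the others on the plus strand.
Rack1 donor: aacGCaagtagctgc
Sqstm1 donor: cagGCatgtggtcac
Prom2 donor: cagGCaagggaaccc
Hsbp1 donor: ggaATatccttttga
Hnrnpl donor: ggaATatccttttct
D10Jhu81e donor: accATatcctttctg

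The AT donors shared one stretch. Of 35 AT donors with enough bases 29 (82.9%) began ATATCCTT, read at a fixed place on the intron's strand. A=1, C=1 donors all began GT where read, and the same stretch with GT in place of its first AT, GTATCCTT, began 109 of 29648 of them (0.368%). The GC donors began GCAAGT in 36 of 76 (47.4%), where the GT form of that stretch, GTAAGT, began 10.6% of A=1, C=1 donors, and their exon ended in AG in 78.9% of cases, against 52.2% of A=1, C=1 donors. The exon before an AT donor ended in AG in 11.4%. The matching acceptors of the introns of Rack1 (chr11:48802258-48802275, plus strand), Hsbp1 (chr8:119345598-119345615, plus strand), Hnrnpl (chr7:28815084-28815101, plus strand) and D10Jhu81e (chr10:78162716-78162733, minus strand) on mm10 follow, with the intron's last 2 bases in capitals before 3 exon bases.
Rack1 acceptor: ggttctccttcttAGggg
Hsbp1 acceptor: ctttaactgtgccACtag
Hnrnpl acceptor: cttaagtcttctcACgtt
D10Jhu81e acceptor: ctaacgtctactcACgaa

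The stretch TTAAC, part of the branch-point sequence known for minor introns, stood in the last 40 bases of 4 of 16 AT-donor introns (25%), those of 9930104L06Rik, Hsbp1, Rnf123 and Spc24, against 3.99% of A=1, C=1 introns. Among GC-donor introns it stood in 1 of 35 (2.86%), that of Lztr1, which encodes an adaptor of a ubiquitin ligase. The Lztr1 intron also began with bases otherwise seen after AT in the list above, GCATCCTTTT, and held the longer stretch TCCTTAAC, which 0.186% of A=1, C=1 introns held. Lztr1 was not alone in such a start, since the GC-AG intron of Vps9d1, a junction with 83 reads, began GCATCCTT. The Lztr1 donor lies at chr16:17524455-17524469 and its acceptor at chr16:17525224-17525241 on mm10, plus strand.
Lztr1 donor: gctGCatccttttac
Lztr1 acceptor: ttaacttttatccAGcta

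Junctions with A=1 and C=0 were read nearly as deeply as those with A=1 and C=1. The 497 held 116904 reads, 0.287% of all junction reads, with a median of 31, against 42 for A=1, C=1 junctions, 2 for A=0, C=1 and 1 for A=0, C=0. Reads appeared in both R2 and R1 for 382 of the 497 (76.9%), against 87% of A=1, C=1 junctions and 39% of all junctions. The irreproducible discovery rate (IDR), the deposited measure of how poorly a junction repeats between replicates, was at or under 0.1 for 355 (71.4%), against 80.4% of A=1, C=1 junctions and 31.9% of all. A single read carried 50 junctions (10.1%). Reads were concentrated in few junctions, since the highest held 17.7% of the members' reads, the top 5 held 43.7% and the top 10 held 50.7%.

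The tissue's transcription covered both sides of most of these introns. A contig, a stretch of continuous read coverage, covered the base next to each end in 464 of the 497 (93.4%), against 94.2% of A=1, C=1 junctions and 74.2% of all. Matches fell in 417 genes or overlapping gene pairs, 437 of the 446 in protein-coding genes. Of 416 host genes with a row in the gene tables, 370 stood at 1 TPM or more in both libraries, and the median host gene had 12.8 TPM in replicate 2 and 13.3 TPM in replicate 1.

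The junction with the most reads lay at chr11:48615337-48615774 (mm9, plus strand) and matched a GC-AG intron of Rack1, a scaffold protein of the small ribosomal subunit. It had 12075 reads in R2 and 8605 in R1. Its 2 neighbouring introns, both A=1, C=1, had 29673 and 8168 reads in R2 and 22217 and 5482 in R1, so the GC-AG junction lay between them. After scaling by all junction reads R2 was 1.24 times R1 (exact binomial 95% interval 1.21 to 1.28, counting error only), and the neighbours' ratio was 1.21. Another 11 junctions shared an end with it or lay within 10 bases at both ends, and together they held 99 reads.

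Agpat2, an acyltransferase of triglyceride synthesis that fat cells need, held the next junction, at chr2:26452858-26459548 (mm9, minus strand), an intron of 6691 bases. It had 8559 reads in R2 and 3590 in R1, a scaled ratio of 2.12 (2.03 to 2.2). Its matched neighbour had 2697 reads in R2 and 1240 in R1, a ratio of 1.93, so the excess in R2 was shared by an A=1, C=1 intron of the gene. The gene itself had 552 TPM in replicate 2 and 278 TPM in replicate 1. Its donor was shared by low junctions only, and its acceptor most deeply by an A=1, C=1 junction with 88 reads. In all 25 related junctions held 222 reads.

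Glb1l2 and Glb1l3, relatives of beta-galactosidase, each held a junction among the top 10. Glb1l2 had 619 TPM in replicate 2 and 567 TPM in replicate 1, and Glb1l3 had 39.4 TPM in replicate 2 and 34.8 TPM in replicate 1. The Glb1l2 junction, at chr9:26576702-26577324 (mm9, minus strand), had 5184 reads in R2 and 2575 in R1. Its neighbours averaged 4038 reads in R2 and 2596 in R1, and 8 related junctions held 29 reads. The scaled ratio of the Glb1l2 junction was 1.79 (1.7 to 1.87), above the 1.38 of its neighbours. The Glb1l3 junction, at chr9:26636032-26636551 (mm9, minus strand), had 911 reads in R2 and 586 in R1. That was 2.92 times the mean of its matched neighbours, of which one was a low junction with 75 reads and the other had 950, and 3 related junctions held 7 reads.

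Further pairs of gene relatives stood among the 15 highest junctions, noticed after their values were seen. Arpc5 and Arpc5l encode forms of one subunit of the Arp2/3 complex, which starts branched actin filaments. The Arpc5 junction, at chr1:154613998-154615990 (mm9, plus strand), had 2790 reads in R2 and 3245 in R1. Only low junctions of 132 and 2 reads were matched as its neighbours, so its ratio to them says little, and 7 related junctions held 30 reads. The Arpc5l junction, at chr2:38863865-38868634 (mm9, plus strand), had 745 reads in R2 and 750 in R1. Both introns end in AC, at chr1:152768846-152768863 and chr2:39013100-39013117 on mm10, plus strand, shown with the last 2 intron bases in capitals.
Arpc5 acceptor: cttaaccttcgttACagg
Arpc5l acceptor: ctggctttgatgcACagg

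Prom1 and Prom2 encode prominins, proteins of membrane protrusions. The Prom1 junction, at chr5:44438858-44447116 (mm9, minus strand), had 797 reads in R2 and 753 in R1, and 7 related junctions held 8 reads. That was 2.32 times the mean of its matched neighbours, of which one was a low junction with 95 reads and the others had 949 and 963. The Prom2 junction, at chr2:127358620-127360560 (mm9, minus strand), whose donor is GC, had 720 reads in R2 and 543 in R1, 0.873 times its neighbours. The 2 relatives in each pair thus both had a junction of this kind, at different levels.

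The AT-AC introns were led by Hsbp1, which binds the heat shock factor HSF1, and Hnrnpl, an RNA-binding regulator of splicing. The Hsbp1 junction, at chr8:121868903-121869512 (mm9, plus strand), had 2353 reads in R2 and 2115 in R1, 4.68 times the mean of its neighbours, which had 447 and 447 reads in R2 and 644 and 372 in R1. The Hnrnpl junction, at chr7:29599307-29600117 (mm9, plus strand), had 988 reads in R2 and 1125 in R1, 1.25 times its neighbours. Their related junctions held 20 reads in 7 junctions for Hsbp1 and 12 reads in 5 for Hnrnpl. Summed over R2 and R1, reads over both AT-AC introns were more than over either intron beside them.

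The remaining junctions of the top 10 matched Araf and Sqstm1. Araf, a Raf kinase, had 767 reads in R2 and 749 in R1 at chrX:20435051-20435519 (mm9, plus strand), and 9 related junctions with 123 reads, mostly from the same donor to nearby acceptors. Sqstm1, the autophagy receptor p62, had 849 reads in R2 and 656 in R1 at chr11:50014450-50015900 (mm9, minus strand). Its acceptor was also reached from a donor further upstream by an A=1, C=1 junction with 243 reads in R2 and 235 in R1, so the GC donor carried the larger share. Its 6 related junctions held 485 reads.

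**Figure D1:**
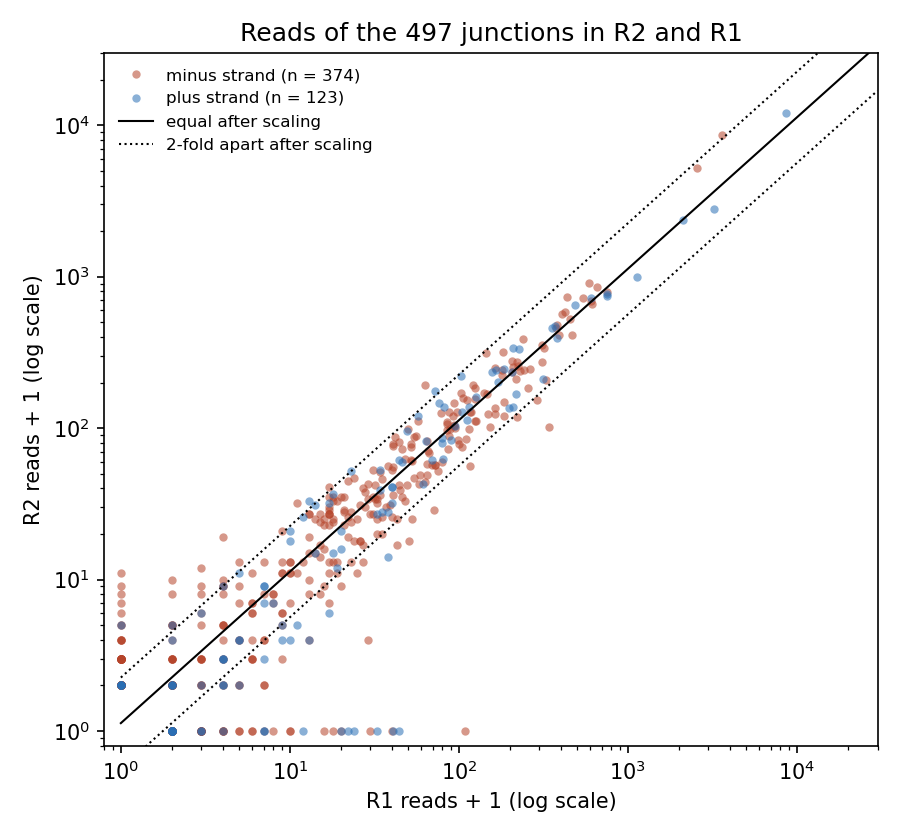
Reads of each of the 497 junctions in R2 (vertical) against R1 (horizontal), both as reads + 1 on log scales. Each point is a junction, coloured by strand, and the solid line marks equal reads after scaling by all junction reads, with dotted lines 2-fold to either side. Most junctions with 20 or more reads lie between the dotted lines. The points along the bottom have reads in R1 and none in R2 (64 junctions), and those along the left edge have reads in R2 and none in R1 (51 junctions).

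Against the introns beside them, the readable GC donors had fewer reads at the median and the readable AT donors about as many as A=1, C=1 junctions. The reads of a junction over the mean of its matched A=1, C=1 neighbours, where these averaged 10 or more reads, had a median of 0.731 in 360 junctions (quartiles 0.381 and 1.28), against 0.87 in 137305 A=1, C=1 junctions. The median was 0.518 for 72 GC donors (quartiles 0.0958 and 0.924) and 0.851 for 36 AT donors (quartiles 0.457 and 1.61). For 240 members whose donor could not be read it was 0.799. The A=1, C=1 value was not limited to readable donors, and whether readability goes with lower ratios was not tested. A matched transcript can be a minor form of its gene, so low neighbours raise single ratios, as in Arpc5.

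**Figure D2:**
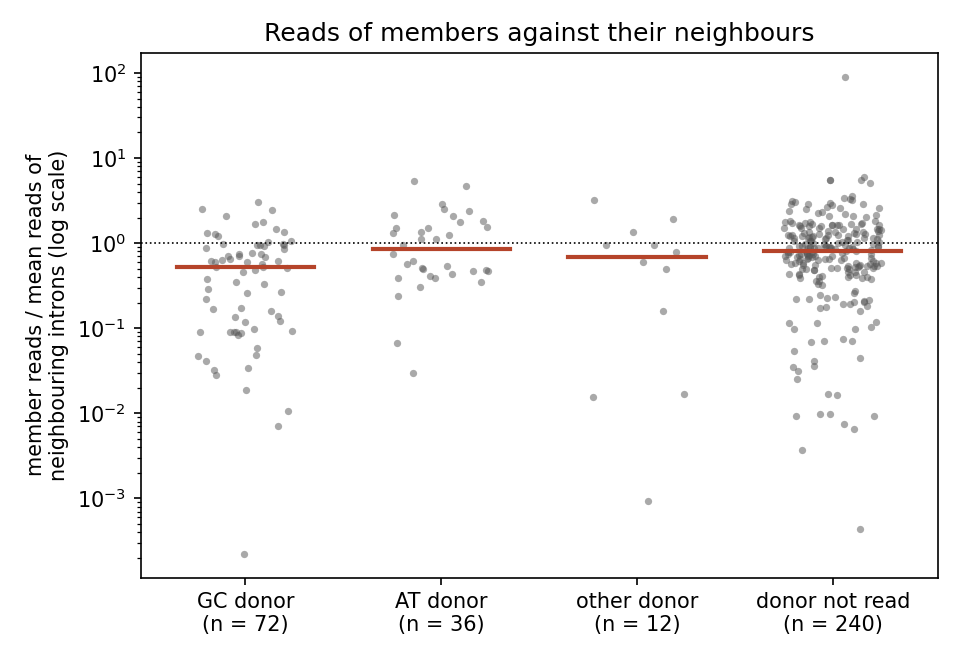
Reads of each junction over the mean reads of its neighbouring introns (vertical, log scale), by the first 2 bases of the matched intron. Each point is a junction, the bar is the median of its class, and the dotted line marks equal reads; the median is 0.518 for GC donors and 0.851 for AT donors.

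Some junctions were minor forms at heavily read genes, chosen here after their values were seen. Prdx1, a peroxiredoxin, had a GC-AG junction with 1 read in R2 and 1 in R1, where its neighbours averaged 8972 reads. Srebf1, a transcription factor of lipid synthesis, had a GC-AG junction with 81 reads in R2 and 64 in R1, 0.0904 times its neighbours and 11.4% of the reads at its acceptor. Plin1, which coats the fat cell's lipid droplet, had a junction ending in AG, its donor unread, with 351 reads in R2 and 311 in R1, 21.9% of the reads at its acceptor. By contrast the GC-AG junctions of Stat3, a cytokine-activated transcription factor, and Nr1h2, the oxysterol receptor LXR beta, held 100% of the reads at their donors and 100% and 98.2% at their acceptors. Stat3 had 70 reads in R2 and 65 in R1, and Nr1h2 had 183 in R2 and 256 in R1. Over all 497 junctions 403 (81.1%) held more than 50% of the reads at both of their ends, against 87.8% of A=1, C=1 junctions.

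Exactly 1 end was shared with an A=1, C=1 junction by 85 of the 497 (17.1%), against 14.1% of A=1, C=1 junctions and 19.8% of all. The shared end was the acceptor in 74 and the donor in 11, against the acceptor in 13385 and the donor in 11227 A=1, C=1 junctions. Since A=1, C=1 donors all began GT where read, a member with a GC or AT donor could share only its acceptor with one. A C=1 junction lay within 10 bases at both ends of 48 of the 497, a count not made for the other classes, so it has no background.

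The ends other than GC-AG and AT-AC fell in 10 junctions. Inpp5b and 9930104L06Rik had AT-AG ends. Gpaa1 and Ift80 had AT-AT ends as annotated. In Ift80 the last exon bases, at, repeat the last intron bases, AT. That intron can thus be placed further upstream with the same spliced sequence, where it starts ATATCCTT and ends in AC. Its end pair therefore depends on the placement. The other ends were AG-CA in Dhodh, GA-AG in Fgfr1, GT-AT in Gmppa, GT-GC in Penk, GT-TG in Cnbp and TT-AG in Dpep2. The Dhodh junction, with 109 reads in R2 and 84 in R1, has an equal in an annotated GC-AG intron of that gene. Moving that intron by 3 bases gives the Dhodh junction with the same spliced sequence, so its end pair depends on the placement. Gpaa1, part of the enzyme that attaches lipid anchors to proteins, had 202 reads in R2 and 169 in R1 and a donor starting ATATCC. Cnbp, a nucleic acid binding protein, had 527 reads in R2 and 451 in R1, 0.597 times its neighbours and 33.5% of the reads at its donor. The Cnbp ends lie at chr6:87845453-87845467 and chr6:87845321-87845338, and the Gpaa1 ends at chr15:76333615-76333629 and chr15:76333780-76333797 on mm10, minus strand for Cnbp and plus strand for Gpaa1.
Cnbp donor: atgGTaagtatttaa
Cnbp acceptor: ttttccttattgtTGaag
Gpaa1 donor: aagATatcctccacc
Gpaa1 acceptor: cttgacttgctctATgct

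Some genes held more than 1 member at a shared end, given here with their values in view. Vezt, a protein of cell junctions, had 2 junctions on the minus strand from the same donor to acceptors 4 bases apart. The one at chr10:93453033-93456261 (mm9) had 55 reads in R2 and 37 in R1, and the one at chr10:93453029-93456261 had 1 in R2 and 1 in R1. Znhit1, a subunit of a chromatin remodelling complex, also had 2 junctions on the minus strand from the same donor. The one at chr5:137460920-137463358 (mm9) had 127 reads in R2 and 117 in R1, and the one at chr5:137462126-137463358 had 7 in R2 and 7 in R1.

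The strand of these junctions was lopsided. On the minus strand lay 374 and on the plus strand 123, so 75.3% were minus (exact binomial 95% interval 71.2 to 79), against 49.6% of A=1, C=1 junctions. Of the 20 chromosomes that held any, 19 held more on the minus strand and 0 held more on the plus strand. The median was 30.5 reads per minus junction and 32 reads per plus junction. The excess stood in the GC donors, with 80 minus and 5 plus, and in the junctions whose donor could not be read, with 272 minus and 91 plus. AT donors had 17 minus and 20 plus.

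**Figure D3:**
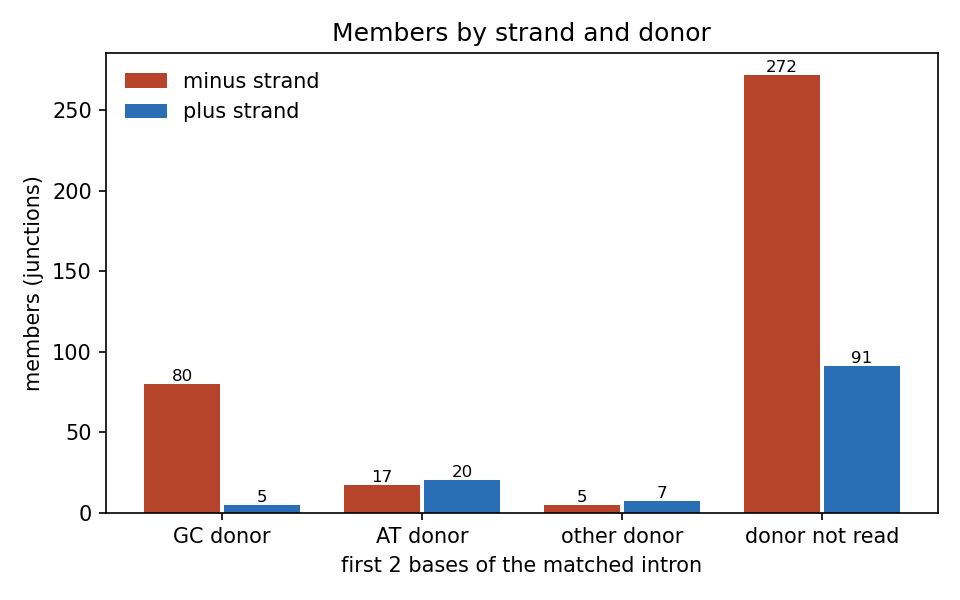
Number of the 497 junctions on the minus and the plus strand, by the first 2 bases of the matched intron. Each bar carries its count, and GC donors stand at 80 minus against 5 plus while AT donors stand at 17 minus against 20 plus.

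One sequence feature was shared by every junction in which it could be read. When the last exon bases before an intron's left end repeat the last intron bases at its right end, counted on the plus strand of the genome, the intron can be placed at lower coordinates with the same spliced sequence. In 135 of 135 readable members, 103 minus and 32 plus, no such move was possible. Of the GT-AG introns found in the table, 3244 of 8781 (36.9%) could not be moved that way. Moves to higher coordinates were possible in 77 of 107 readable members, a count not made for other introns, so it has no background.

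The search was then turned round, from annotated introns to the table, over introns with readable ends and neighbours on both sides that averaged 20 or more reads. Of 38 GC-AG introns that cannot be moved, 20 (52.6%, exact binomial 95% interval 35.8 to 69) were listed at their own place, 19 of them as members. Of 125 GC-AG introns that can be moved, 0 were listed at their own place (0 to 2.91%), and 77 (61.6%) were listed at the lowest place that gives the same spliced sequence, 76 of them with A=0 and C=0. The remaining row was the Dhodh member named above. The 77 rows so listed had a median of 0.547 times their neighbours' reads. GT-AG introns that can be moved were listed at their own place in 5537 of 5952 cases (93%).

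The 2 strands differed in how many GC-AG introns could be moved. On the minus strand 32 of 87 annotated GC-AG introns (36.8%) could not be moved to lower coordinates, against 6 of 76 (7.89%) on the plus strand. Of these, 18 minus and 2 plus introns were listed at their own place. Ends of a GC-AG intron that follows an exon ending in AG repeat the AG, and on the plus strand that repeat lies on the lower side.

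**Figure D4:**
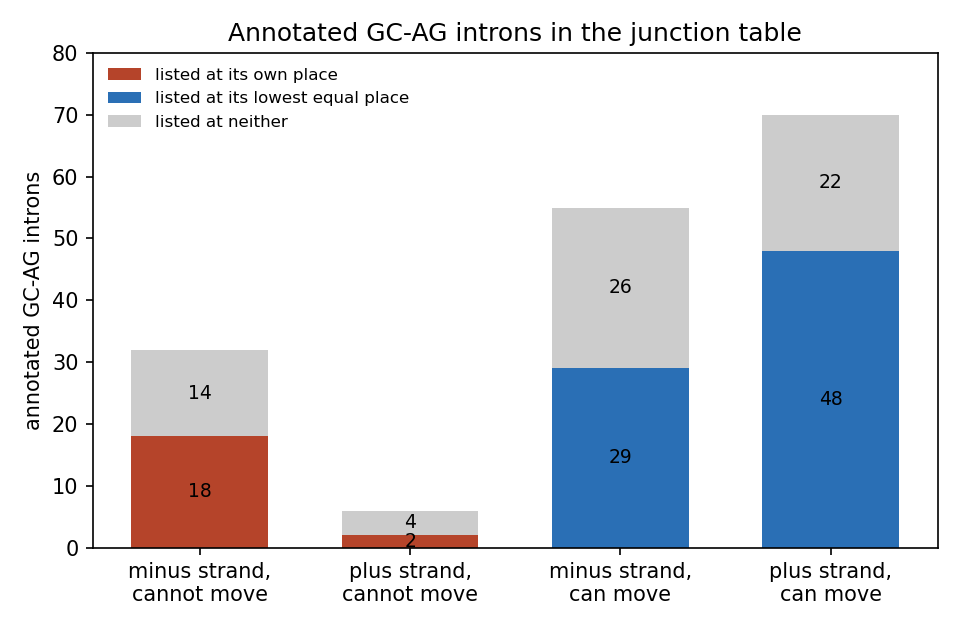
Annotated GC-AG introns with neighbours averaging 20 or more reads, by strand and by whether they can be moved to lower coordinates with the same spliced sequence (vertical axis, number of introns). Colours mark introns listed at their own place, at their lowest equal place or at neither; all 20 found at their own place cannot be moved, and 77 of those that can be moved are listed at the lowest place.

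A few genes outside the 497 show what such rows held, chosen after their values were seen. Selenbp1, a selenium-binding protein, had 633 reads in R2 and 430 in R1 at a junction moved by 2 bases, 0.963 times its neighbours, and 0 reads at the annotated place. Rnaset2b, a ribonuclease of lysosomes, had 776 reads in R2 and 738 in R1 at a junction moved by 1 base, 0.812 times its neighbours. Becn1, an autophagy protein on the minus strand, had 419 reads in R2 and 303 in R1 at a junction moved by 1 base, 2.27 times its neighbours. The annotated ends lie on mm10 at chr3:94937388-94937403 and chr3:94937945-94937960, at chr17:6984186-6984201 and chr17:6985046-6985061, and at chr11:101295524-101295539 and chr11:101295426-101295441. Capitals mark the first and last 2 intron bases. In Selenbp1 the ag before the donor repeats the AG of the acceptor, while in Rack1 above the exon ends in c and the intron in G.
Selenbp1 donor: cacaagGCatgtcctc
Selenbp1 acceptor: ccttctccAGgtcatt
Rnaset2b donor: actatgGCaagcatct
Rnaset2b acceptor: ggatttcaAGgcccga
Becn1 donor: ctcaagGCaagttggt
Becn1 acceptor: atgcttccAGgtcact

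Members were often shadowed by copies, junctions of the same length and strand with both ends moved by up to 10 bases. Of the 497, 142 (28.6%) had at least 1 copy, against 151 of 174017 A=1, C=1 junctions (0.0868%). The 205 copies were A=0, C=0 in 200 cases and held a median of 0.494% of their member's reads. Of 18 members with 1000 reads or more 17 had a copy, and of 216 with under 20 reads 12 did, so the count moved with depth. Copies moved by 1 or 2 bases numbered 148, and 148 (72.2%) lay at lower coordinates. Rack1 had copies of 43, 16 and 5 reads. A copy held more reads than its member in 4 cases, among them low members beside high ones in Arpc5l (1 read beside 1495) and Slc44a4 (2 reads beside 557).

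**Figure D5:**
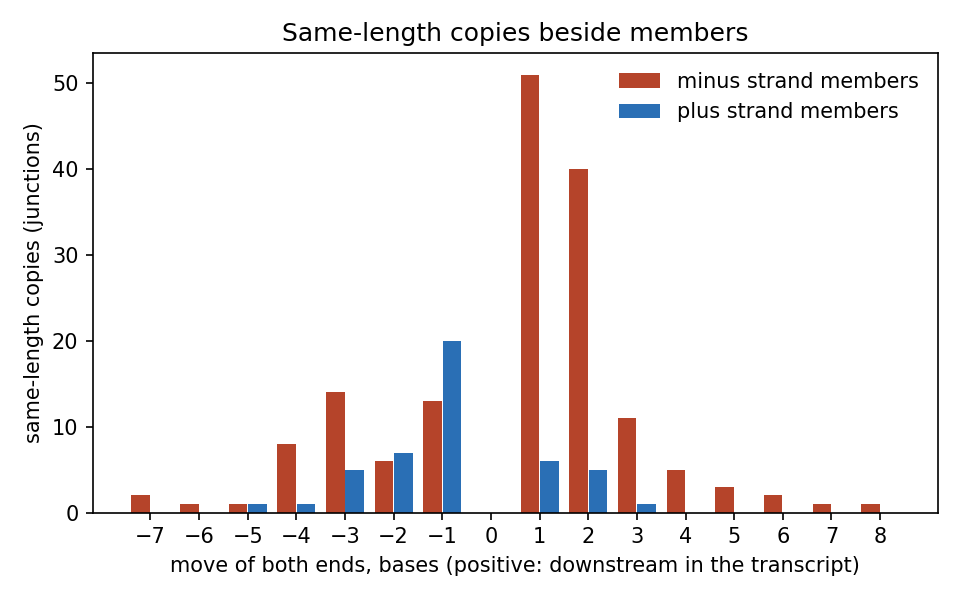
Number of same-length copies (vertical) by the number of bases both ends are moved (horizontal, positive downstream in the transcript), for members on the minus and the plus strand. The tallest bars are 51 copies 1 base and 40 copies 2 bases downstream of minus strand members.

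Between R2 and R1, 39 of the 281 junctions with 20 or more reads were over 2-fold apart after scaling (13.9%), 11 higher in R2 and 28 higher in R1. The same rule took 14.6% of all junctions, 5.84% higher in R2 and 8.8% higher in R1, and 13.7% of A=1, C=1 junctions. The share among members was near these 2 shares. It was below the 27% of A=0, C=1 junctions and the 31.2% of A=0, C=0 junctions. The standard deviation of the log2 ratio was 1.22 among the 281 members and 0.71 among A=1, C=1 junctions with 20 or more reads. Among those read in both R2 and R1 it was 0.66 for 273 members and 0.70 for A=1, C=1 junctions. Of 34 members over 2-fold apart whose neighbours averaged 20 or more reads, 8 had neighbours past 2-fold the same way and 26 had neighbours within 2-fold. That split was not counted for the other classes. Over all 254 members with such neighbours 30 (11.8%) were over 2-fold from their neighbours' ratio, against 9.31% of A=1, C=1 junctions.

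A few members were read in R1 and not at all in R2, and where neighbouring introns were matched these were read in both. With 20 or more reads, 8 of 281 members (2.85%) had 0 reads in R2 and 0 had 0 reads in R1. Among A=1, C=1 junctions 24 of 110472 (0.0217%) had 0 in R2 and 39 (0.0353%) had 0 in R1. Among A=0, C=0 junctions 53 of 1463 (3.62%) had 0 in R2 and 31 (2.12%) had 0 in R1, so the members' share in R2 was below that class. Over all junctions it was 0.0894% in R2 and 0.0843% in R1. The deposited IDR of the 8 was at or under 0.004, and 21 of the 115 members with 0 reads on one side had an IDR at or under 0.1, so a low IDR did not mean reads in both.

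The largest of these was the Gnai1 junction, at chr5:17777798-17779263 (mm9, minus strand), with 0 reads in R2 and 108 in R1. Gnai1 encodes an inhibitory G protein subunit. Its neighbouring introns had 82 and 224 reads in R2 and 57 and 148 in R1, so the gene was spliced in both. Set against a floor of 3 reads, R1 was at least 40.6-fold higher. The gene had 45.5 TPM in replicate 2 and 43.4 TPM in replicate 1. No related junction was listed.

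Members at 0 reads in R2 were also found in other genes. The Adat2 junction, at chr10:13280071-13281509 (mm9, plus strand), had 0 reads in R2 and 43 in R1, at least 16.2-fold higher in R1. Adat2 encodes a tRNA deaminase, and its neighbours averaged 36 reads in R2 and 46 in R1, with 2 related junctions of 3 reads in all. An unmatched junction at chr13:83732243-83764759 (mm9, plus strand) had 0 reads in R2 and 40 in R1, at least 15-fold higher, with 1 related junction of 2 reads. Sestd1, Brms1l, Stk39, E2f6 and Stx6 had between 21 and 39 reads in R1, with neighbours averaging between 19.5 and 91 reads in R2. What sets these apart was not tested.

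The members furthest towards R2 were less extreme. Deaf1, a transcription factor, had a junction at chr7:148510079-148510340 (mm9, minus strand) with 18 reads in R2 and 3 in R1. Its scaled ratio was 5.32 (1.55 to 28.2), an interval that holds the 1.64 of its neighbour. The acceptor of the Deaf1 junction was shared by another member with 12 reads in R2 and 6 in R1, and its 2 related junctions held 19 reads. The junction at chr4:123973668-123974479 (mm9, minus strand), matched to the predicted gene Gm12916, had 193 reads in R2 and 62 in R1, a ratio of 2.76 (2.06 to 3.74), beside 2.56 for its neighbours, and its 2 related junctions held 64 reads. The gene had 15.4 TPM in replicate 2 and 6.38 TPM in replicate 1. Itga2b, the platelet integrin alpha subunit, had 31 reads in R2 and 10 in R1 at chr11:102327069-102327203 (mm9, minus strand), a ratio of 2.75 (1.31 to 6.29), beside 1.08 for its neighbours, with no related junction.

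Intron lengths ran from 48 to 94052 bases with a median of 1097, against a median of 1345 for A=1, C=1 junctions. Under 70 bases lay 2 members (0.402%), against 0.0805% of A=1, C=1 junctions, 8.93% of A=0, C=0 junctions and 3.9% of all, and each of the 2 had a single read. The longest with 10 or more reads in both R2 and R1 was in Slc39a11, a zinc transporter, at chr11:113231213-113325264 (mm9, minus strand). It had 22 reads in R2 and 15 in R1, and its acceptor was also reached by an A=1, C=1 junction from a donor 21 bases upstream with 52 reads in R2 and 71 in R1. Arhgap17 came next with 38488 bases and a GC donor at chr7:130474780-130513267 (mm9, minus strand). It had 32 reads in R2 and 47 in R1, 0.454 times its neighbour, and 3 related junctions held 4 reads.

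Gbe1, the glycogen branching enzyme, had an AT-AC intron of 32013 bases at chr16:70529256-70561268 (mm9, plus strand). Its junction had 176 reads in R2 and 71 in R1, a scaled ratio of 2.2 (1.66 to 2.94), beside 3.29 for its neighbours. Its 2 related junctions held 5 reads. The shortest by the same rule were in Wdr90 (73 bases, chr17:25988704-25988776), Ints1 (82 bases, chr5:140232316-140232397) and Dpep2 (85 bases, chr8:108513284-108513368), all on the minus strand of mm9. Wdr90 had 34 reads in R2 and 17 in R1, Ints1, a subunit of the Integrator complex, had 62 in R2 and 47 in R1, and Dpep2, a dipeptidase, had 22 in R2 and 16 in R1. Related junctions held 3, 15 and 2 reads for these 3.

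In 51 junctions no intron of M21 matched by structure. Both ends moved by 1 or 2 bases gave a match in 7 of them, in Msh3, Slc44a4, Hdhd2, Arpc5l, Nav2, Spcs3 and Klhl2, and 44 had none. The unmatched junction with the most reads, at chr10:76175156-76175929 (mm9, minus strand), had 566 reads in R2 and 407 in R1. By length alone 127 of the 497 (25.6%) had exactly 1 annotated intron of their chromosome, strand and length, against 35.8% of A=1, C=1 junctions and 20.4% of all.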

How the data were processed

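RNA-seq of 1 group of 2 libraries was used. The junction and contig tables, on mm9, were made by the authors over both libraries together; the sources used here name neither aligner nor caller and do not explain flags A and C. The deposited junction table gives read counts per junction, split into R2 and R1, and an IDR as a fraction; the deposited contig table gives an RPKM. The deposited scores in both tables were not used for any result. The authors' gene tables give expected counts and TPM on mm10 with GENCODE M4, per the notes deposited with them.

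R2 was scaled to R1 by the sum of all junction reads (factor 0.887). Log2 ratios added 0.5 reads. Junctions were matched to GENCODE M21 introns by lengths, as described above. Intervals and floors cover counting error only. Tools were Python 3.11.15, pandas 2.3.3, scipy 1.17.1 and matplotlib 3.10.9. The 2-fold rule and the match were tested on simulated data.

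The members and the rules were chosen with earlier results of these data known. The planned match used length alone; the match by structure, the intron ends, the moves, the copies and the strand were added after seeing the data. The junctions named were the 10 with most reads at an IDR at or under 0.1, the 5 with most reads, the 3 longest and 3 shortest with 10 or more reads in both R2 and R1, and the 3 most unequal in each direction at 20 or more reads, with related junctions; every other junction named, such as those of Lztr1, Gpaa1, Cnbp and the further ones at 0 reads in R2, was picked with its values in view. Transcript tables were not used here.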

Additional observations from a re-analysis of the deposited data

How the results depend on the processing

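The counts moved with the limits set on reads. Members numbered 329 at 10 or more reads, 281 at 20 or more and 311 at an IDR at or under 0.01. Members over 2-fold apart numbered 63 at a minimum of 10 reads and 16 at a minimum of 50. Introns under 30 bases numbered 0, under 100 bases 27, and under 70 bases with 10 or more reads 0. With an IDR at or under 0.1 required, 46 members shared exactly 1 end with an A=1, C=1 junction and 84 had exactly 1 annotated intron of their length. Members with reads numbered 433 without R1 and 446 without R2. The minus share lay between 74.9% and 76% under the alternatives added after seeing the data. GC-AG introns that cannot be moved were listed at their own place in 52.3% with no minimum for the neighbours and in 64% at a mean of 100 or more reads, and those that can be moved in 0% under both. No paired analysis was possible because there is 1 group and no test. Where the bases of an intron could not be read, its class is unknown, and R2 and R1 are only 2 values.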
